A study of Homo sapiens with 6 samples.

Results

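Nucleotide synthesis supplies the building blocks of RNA and DNA, and 36 of its genes were followed in LN229 cells, an established human glioblastoma line, after knockdown of GDH1. The 36 were chosen as a named list of enzymes of purine synthesis, pyrimidine synthesis, deoxynucleotide supply, salvage and nucleotide phosphorylation. All 36 were found among the 24976 gene symbols of the count table, and all passed the filter on low counts that left 15638 genes to test. GDH1, the product of GLUD1, is the mitochondrial glutamate dehydrogenase that turns glutamate into 2-oxoglutarate.

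RNA from 6 cultures was sequenced. The first group of 3 had GDH1 knocked down by small interfering RNA (siRNA) with lipofectamine over 24 h, and the 3 control cultures carried the genotype label wild type. Their titles begin with NC, and the protocol describes an NC mixture added to dishes alongside the siRNA mixture. The sources used here do not say whether the knockdown cultures shared 1 siRNA sequence, and all cultures came from 1 line. The series design calls the cultures biological replicates of each group, and p-values measure the spread between them. In bulk RNA of this kind a lower level can come from fewer cells of a type or from less RNA per cell, and these cannot be told apart.

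Cells build purines stepwise on a ribose phosphate carrier, phosphoribosyl pyrophosphate (PRPP), and build the pyrimidine ring first and attach it to PRPP afterwards. Glutamine donates nitrogen at several steps, catalysed by PPAT, PFAS, GMPS, CAD, CTPS1 and CTPS2. Ribonucleotide reductase converts ribonucleotides to deoxyribonucleotides, and salvage enzymes recover bases and nucleosides in place of new synthesis. Fast-dividing tumour cells rely on both routes.

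The libraries held 31201100 to 35619614 counts. GLUD1 (chr10:87050202-87094843, GRCh38.p14) had 727, 877 and 933 counts in knockdown replicates 1 to 3, against 3048, 2689 and 2813 counts in control replicates 1 to 3. Its log2 fold change (knockdown over control, as for all fold changes here) was -1.82 (standard error, SE, 0.10), at an adjusted p of 7.46e-07 in edgeR's quasi-likelihood test. Of 8 markers of the glioblastoma line, 4 rose and 2 fell, where 13% of all tested genes rose and 13.1% fell. SOX2, a stem cell transcription factor, rose by 0.78 on the log2 scale, CD44 by 0.44, EGFR by 0.40 and vimentin (VIM) by 0.21 (0.16, not called, after a GC and length correction described later). FABP7, a fatty acid carrier gene of glia, fell by 1.45 and S100B by 1.13, and the astrocyte marker GFAP was near 0 (23, 17 and 16 counts in knockdown and 13, 12 and 8 in control libraries). Marker lists of other cell types were summed in CPM (counts scaled to library size and composition). The 6 leukocyte markers summed to 26.4 to 28.99 CPM in knockdown and 13.96 to 17.2 CPM in control libraries, nearly all of it from CD68, which rose by 0.88, while PTPRC had at most 13 counts a library. The 4 neuron markers summed to 73.3 to 84.8 CPM in knockdown and 91.5 to 97.7 CPM in control libraries, and SNAP25 fell by 0.39. The 4 endothelium markers summed to 1.72 to 2.24 CPM in knockdown and 1.97 to 2.77 CPM in control libraries, with CDH5 at 0 in all 6. The 4 epithelium markers summed to 0.429 to 1.03 CPM in knockdown and 0.639 to 1.11 CPM in control libraries, with CDH1 and KRT5 at 0 in all 6. The part of these markers in the results was not tested. Fold changes across all genes followed the GC content of the transcripts, as described after the 36 genes.

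Of the 36 genes, 8 rose, 3 fell and 25 did not pass an adjusted p of 0.05. That is 30.6% of the list, where 26.1% of all tested genes were called (13% higher and 13.1% lower). The share called in either direction was close to that of the transcriptome. By direction 22.2% of the list rose and 8.3% fell, and this split was not tested. Sizes were modest. The 11 called genes had a median absolute change of 0.38 on the log2 scale, and the median over all 36 genes was 0.04, against -0.0033 over all tested genes. Among the rises, PAICS, SAMHD1, HPRT1 and RRM1 kept their calls under all 19 other settings tried.

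Sequences before the starts of some of these genes are shown here, and their part in the fold changes was not tested. PPAT and PAICS encode enzymes of purine synthesis and are transcribed away from each other from a shared stretch on chromosome 4. Between the PPAT start at 56435615 and a PAICS start at 56435752 lie 136 bases (chr4:56435616-56435751, GRCh38.p14, plus strand, RefSeq), shown with the GC box GGGCGG, the SP1 motif, in capitals.
PPAT-PAICS: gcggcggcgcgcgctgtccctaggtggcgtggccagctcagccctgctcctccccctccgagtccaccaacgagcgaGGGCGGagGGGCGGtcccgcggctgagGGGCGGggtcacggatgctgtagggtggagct
The next set is shown because the listed subunit genes of ribonucleotide reductase, RRM1 and RRM2, rose together. The 250 bases before the start of RRM1 (chr11:4094435-4094684, plus strand) and before the more upstream of the 2 RRM2 starts (chr2:10122318-10122567, plus strand) are printed with CCAAT, the motif of the factor NF-Y, in capitals.
RRM1: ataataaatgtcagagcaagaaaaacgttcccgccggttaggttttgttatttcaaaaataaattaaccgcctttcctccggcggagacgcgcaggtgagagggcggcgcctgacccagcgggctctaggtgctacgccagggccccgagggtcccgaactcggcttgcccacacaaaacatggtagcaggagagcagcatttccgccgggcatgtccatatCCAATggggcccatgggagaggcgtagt
RRM2: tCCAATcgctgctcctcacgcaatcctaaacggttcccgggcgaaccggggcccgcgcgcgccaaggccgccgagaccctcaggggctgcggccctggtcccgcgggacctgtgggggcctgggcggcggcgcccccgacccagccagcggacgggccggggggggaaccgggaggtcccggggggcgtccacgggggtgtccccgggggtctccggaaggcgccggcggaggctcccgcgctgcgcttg
HPRT1 had the largest rise of the salvage genes, and the 250 bases before its start (chrX:134459915-134460164, plus strand) hold the GC box in capitals.
HPRT1: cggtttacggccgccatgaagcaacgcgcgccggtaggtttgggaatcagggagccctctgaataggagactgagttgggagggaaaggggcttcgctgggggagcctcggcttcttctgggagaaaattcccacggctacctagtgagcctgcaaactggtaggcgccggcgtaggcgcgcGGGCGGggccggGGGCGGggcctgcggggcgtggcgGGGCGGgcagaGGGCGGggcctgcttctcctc

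RefSeq windows from 250 bases before to 50 after a start existed for 34 of the 36 genes (not for ADSL and IMPDH2). Each motif was searched on both strands, and a gene with several starts counted once if any of its windows held it. GGGCGG was in 28 of 34 (82.4%), against 48.3% of 27305 genes, and CCAAT was in 11 (32.4%), against 39.7%. The E-box CACGTG, which reads the same on both strands and is bound by MYC and related factors, was in 7 (20.6%), against 8.77% of genes. These are matches to letters only. The 27305 genes are all those with such a window, more than the 15638 tested here, and were not filtered on expression or gene type. The 34 listed genes are all expressed and protein-coding, and their shares were not compared with those of similar genes. The E-box sites are shown with up to 10 bases on each side, each on the strand of its gene. PPAT and PAICS share 1 site.
PPAT (chr4:56435782-56435807, minus strand): cggagatttcCACGTGcagcaaatac
PAICS (chr4:56435782-56435801, plus strand): gtatttgctgCACGTGgaaa
ATIC (chr2:215312003-215312028, plus strand): gccggcgggcCACGTGataagcccgg
DHODH (chr16:72008575-72008600, plus strand): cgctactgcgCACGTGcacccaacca
DCTPP1 (chr16:30429794-30429819, minus strand): agggttcctcCACGTGgtcgggaagc
DCK (chr4:70993523-70993548, plus strand): ccccggccttCACGTGacctggcgtg
NME1 (chr17:51153583-51153608, plus strand): tgctgcgaacCACGTGggtcccgggc
Of these, PAICS and ATIC rose, while PPAT, DHODH, DCTPP1, DCK and NME1 did not pass the test. For comparison, 8 of the 36 listed genes and 13% of all tested genes rose.

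**Figure D1:**
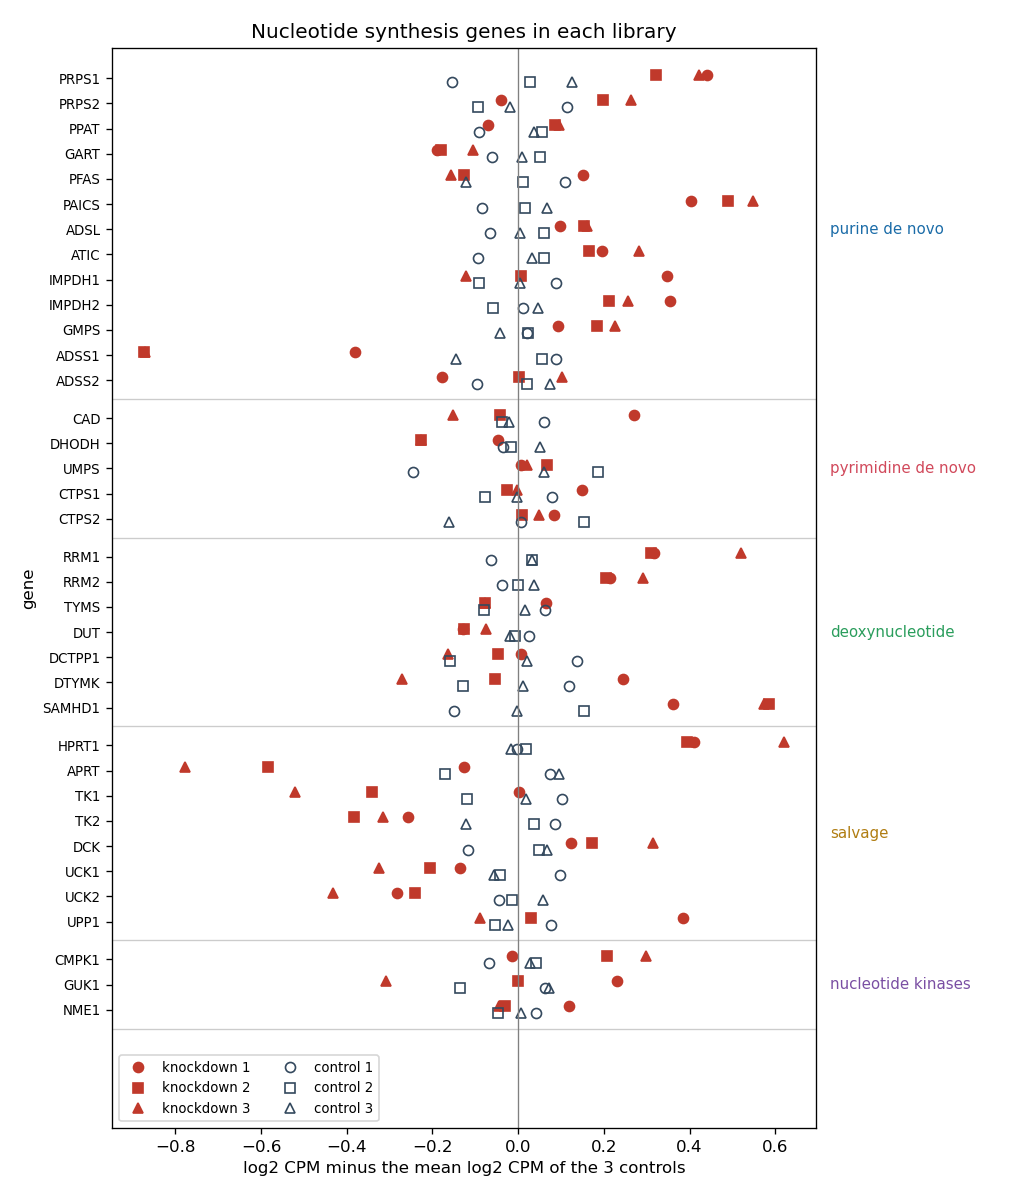
Level of each of the 36 genes in each library (x axis: log2 CPM minus the mean log2 CPM of the 3 controls; filled red symbols: knockdown replicates 1 to 3, open symbols: control replicates 1 to 3; genes grouped by step). For PAICS, HPRT1, RRM1 and SAMHD1 all knockdown libraries lie right of all controls. For TK1, CAD, GUK1 and IMPDH1 the knockdown libraries spread widely, and knockdown replicate 1 lies farthest right among the knockdown libraries.

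Of the 13 purine synthesis genes, 4 rose (PAICS, PRPS1, IMPDH2 and ATIC), 0 fell and 9 did not pass, where 13% of all tested genes rose, with a median log2 fold change of 0.14. The pathway's opening substrate is made by the PRPP synthetases. PRPS1 (chrX:107628510-107651026) had 52.4, 48.2 and 51.7 CPM in knockdown replicates 1 to 3, against 34.6, 39.3 and 42.1 CPM in control replicates 1 to 3. Every knockdown library was above every control (log2 fold change 0.39, SE 0.09, adjusted p = 0.0093, edgeR), but without control replicate 1, its lowest control, the adjusted p was 0.055. Its isoenzyme PRPS2 had 27.6, 32.5 and 34.0 CPM in knockdown and 30.7, 26.6 and 28.0 CPM in control libraries. These overlapped, with a log2 fold change of 0.14 (adjusted p = 0.34, edgeR). Per kb of transcript PRPS1 made up 65.4 ± 3.05% of the pair in knockdown and 61.3 ± 3.86% in control libraries (SD, n = 3 each). The libraries overlapped, at 63.3 to 68.9% in knockdown and 56.8 to 63.7% in control.

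Among the genes that assemble the purine ring, PAICS and ATIC rose and the others did not pass. PPAT, whose amidotransferase commits PRPP to purines using glutamine, was nearly level: 35.1, 39.2 and 39.4 CPM in knockdown and 34.6, 38.3 and 37.8 CPM in control libraries. The libraries overlapped, and the 95% interval of the log2 fold change was -0.16 to 0.23. GART, which encodes an enzyme with activities at several early steps, had 94.6, 95.3 and 100.4 CPM in knockdown and 103, 112 and 109 CPM in control libraries. All its knockdown libraries lay below all controls, with a log2 fold change of -0.16, but the adjusted p was 0.12 (edgeR). GART was the only listed gene with several rows: a second copy held 11.5 to 18.3% of its counts, and both rows were summed. PFAS, the gene of the next glutamine-using step, was at -0.04 (95% interval -0.25 to 0.17).

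PAICS (chr4:56410507-56464578), whose bifunctional enzyme carries out the middle steps of ring assembly, had 278, 295 and 307 CPM in knockdown libraries and 198, 213 and 221 CPM in control libraries. The groups were clearly apart, and knockdown libraries stood at 1.39 times the control level (log2 fold change 0.48, SE 0.07, adjusted p = 5.56e-04, edgeR). Across the same stretch of DNA its neighbour PPAT had a log2 fold change of 0.04, and the difference between the 2 genes was not tested. RefSeq lists 3 PAICS starts, of which the printed stretch borders 1, and the counts do not separate them. The most upstream one lies inside PPAT (chr4:56393362-56435615), on the opposite strand. ADSL, which encodes the lyase used in the ring and again in AMP synthesis, had 125, 129.9 and 130.5 CPM in knockdown and 112, 122 and 117 CPM in control libraries. They did not overlap, yet the adjusted p was 0.16 (log2 fold change 0.14, edgeR).

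ATIC (chr2:215312059-215368592), the gene of the enzyme that closes the ring and yields inosine monophosphate (IMP), rose slightly. It had 166, 163 and 176 CPM in knockdown libraries and 136, 151 and 148 CPM in control libraries (log2 fold change 0.21, SE 0.07, adjusted p = 0.046, edgeR). Its groups did not overlap, but the call was close to the threshold and was lost without any 1 library other than knockdown replicate 1 (adjusted p 0.074 to 0.19) and with no filter on low counts (0.054).

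From IMP the pathway divides towards GMP and AMP. On the GMP side IMPDH2 (chr3:49024325-49029398), the dehydrogenase gene usually dominant in dividing cells, had 241, 218 and 226 CPM in knockdown and 190.3, 181 and 195 CPM in control libraries. It rose, with all knockdown libraries above the controls (log2 fold change 0.27, SE 0.07, adjusted p = 0.013, edgeR), and was at an adjusted p of 0.063 without control replicate 2. IMPDH1, its isoenzyme, had 135, 107 and 97.6 CPM in knockdown and 113, 99.6 and 106 CPM in control libraries. Knockdown replicate 1 was above all controls and knockdown replicate 3 below them all, so that the log2 fold change of 0.09 did not pass (adjusted p = 0.59, edgeR). Per kb of transcript IMPDH1 was 21.9 ± 2.21% of the pair in knockdown and 24.3 ± 0.843% in control libraries (SD, n = 3 each). GMPS, whose enzyme uses glutamine to finish GMP, had 107, 114 and 117 CPM in knockdown and 101, 102 and 97.2 CPM in control libraries. Its groups were apart, with a log2 fold change of 0.17 and an adjusted p of 0.099 (edgeR), which was 0.016 without knockdown replicate 1. GMPS was at 0.07 and not called after the GC and length correction described later (adjusted p = 0.21, edgeR).

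On the AMP side no gene passed. ADSS2, the widely expressed adenylosuccinate synthase gene, had 86.2, 97.7 and 105 CPM in knockdown and 91.3, 98.9 and 103 CPM in control libraries. These overlapped, with a log2 fold change of -0.02 (95% interval -0.21 to 0.17). ADSS1, the muscle isoenzyme, was almost silent with 33, 22 and 23 counts in knockdown and 46, 41 and 37 counts in control libraries. Its groups were apart at this low level, with the most negative estimate of all 36 genes and the widest error (log2 fold change -0.73, SE 0.33, adjusted p = 0.12, edgeR). Per kb it made up 0.847 ± 0.273% of the pair in knockdown and 1.36 ± 0.191% in control libraries (SD, n = 3 each).

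Pyrimidine synthesis had 0 rises and 0 falls among 5 genes in edgeR's test at an adjusted p of 0.05, where 26.1% of all tested genes were called. In the same test 0 of the 5 had an unadjusted p under 0.05, and neither DESeq2 nor limma-voom called any. After the GC and length correction 1 of them, CAD, was higher (0.16, adjusted p = 0.0065, edgeR). CAD, the large gene of the enzyme that opens the pathway with glutamine, had 186, 149 and 139 CPM in knockdown and 161, 150.0 and 152 CPM in control libraries. Knockdown replicate 1 stood above the controls and knockdown replicates 2 and 3 below them, and the 95% interval of the log2 fold change ran from -0.18 to 0.25. DHODH, whose mitochondrial enzyme passes electrons to the respiratory chain, had 18.5, 16.3 and 16.3 CPM in knockdown and 18.6, 18.9 and 19.8 CPM in control libraries. All its knockdown libraries were below all controls, though the log2 fold change of -0.17 did not pass (adjusted p = 0.25, edgeR).

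UMPS, whose enzyme attaches the ring to PRPP and makes uridine monophosphate, had 39.0, 40.8 and 39.4 CPM in knockdown and 32.8, 44.2 and 40.5 CPM in control libraries. The knockdown values lay inside the wide range of the controls (95% interval of the log2 fold change -0.21 to 0.26). The CTP synthases convert UTP to CTP with glutamine. CTPS1 had 118, 104 and 106 CPM in knockdown and 112, 101 and 106 CPM in control libraries, and CTPS2 had 9.93, 9.43 and 9.70 CPM in knockdown and 9.42, 10.4 and 8.37 CPM in control libraries. Both overlapped between groups, with intervals of -0.13 to 0.21 and -0.24 to 0.32. CTPS1 made up 90.2 ± 0.387% of the pair per kb in knockdown and 90.2 ± 1.30% in control libraries (SD, n = 3 each). A 95% interval for these 5 genes reached no further than -0.38 (DHODH) and 0.32 (CTPS2).

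The 6 glutamine-using amidotransferase genes, PPAT, PFAS, GMPS, CAD, CTPS1 and CTPS2, come from both routes. In edgeR, DESeq2 and limma-voom 0 of these 6 were called, where edgeR called 26.1% of all tested genes, and 1 (GMPS) had an unadjusted p under 0.05. After the GC and length correction 2 of the 6 were higher, CAD (0.16) and PFAS (0.14). Before it their log2 fold changes ran from -0.04 to 0.17 with a median of 0.04.

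**Figure D2:**
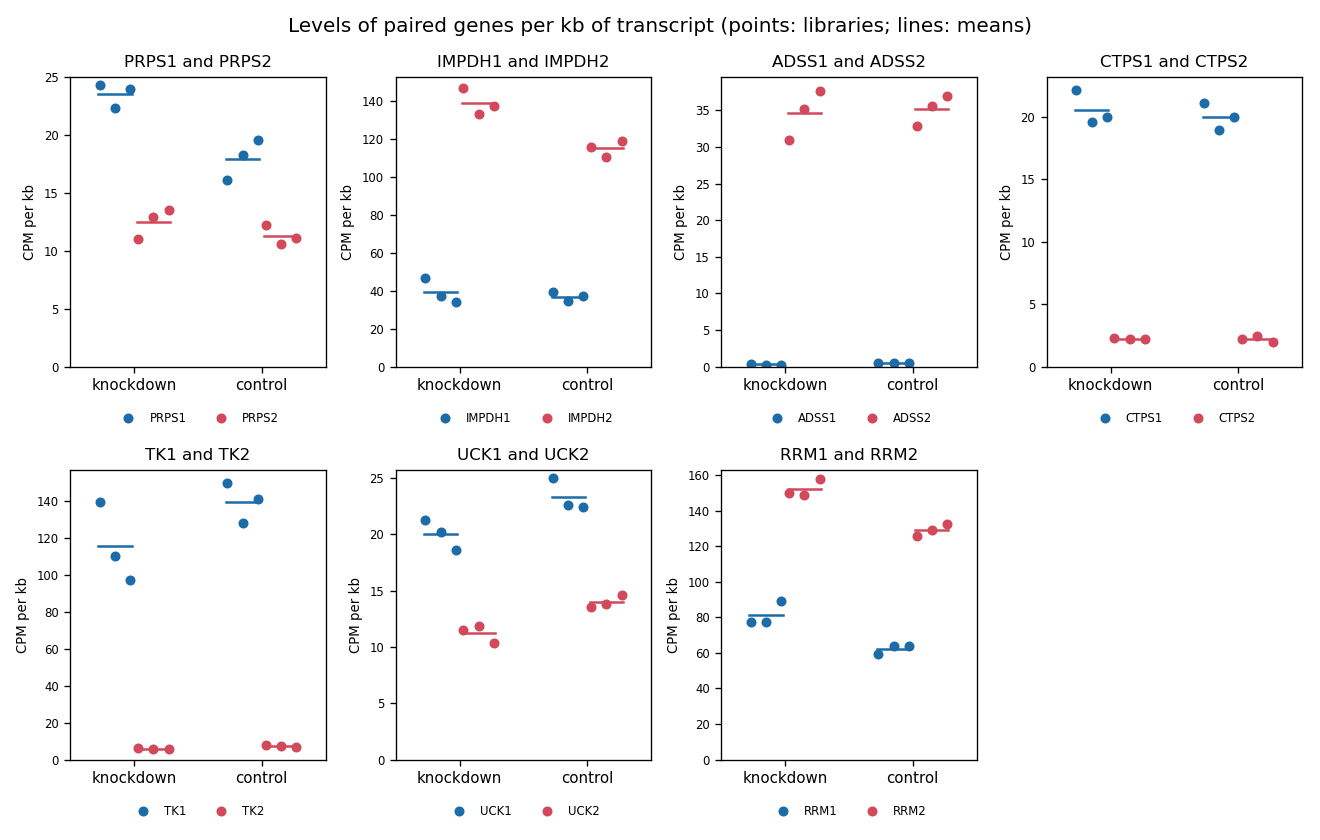
Levels per kb of transcript (y axis, CPM per kb, starting at 0) of 6 pairs of isoenzymes and of the 2 listed ribonucleotide reductase subunit genes, with knockdown libraries left of controls, 1 point per library and a line at the mean. PRPS1, IMPDH2, RRM1 and RRM2 sit higher and UCK2 and TK2 lower in the knockdown, while the libraries of the groups overlap for CTPS1 and CTPS2.

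Deoxynucleotide supply had 3 rises (RRM1, RRM2 and SAMHD1) and 0 falls among 7 genes, while 4 did not pass, and its median log2 fold change was -0.01. Over all tested genes 13% rose and 13.1% fell. RRM1 (chr11:4094685-4138932) encodes the large, catalytic subunit of ribonucleotide reductase. It had 246, 245 and 283 CPM in knockdown and 189, 202 and 202 CPM in control libraries, and all knockdown libraries were higher (log2 fold change 0.38, SE 0.08, adjusted p = 0.0035, edgeR). RRM2 (chr2:10122568-10211010), the small subunit made in S phase, was among the most abundant of the 36 genes at 152 CPM per kb in knockdown and 129 CPM per kb in control libraries. It had 549.8, 546 and 579.8 CPM in knockdown and 462, 474 and 486 CPM in control libraries, again without overlap (log2 fold change 0.24, SE 0.06, adjusted p = 0.014, edgeR). Its call was lost without control replicate 1 (adjusted p = 0.073), control replicate 2 (0.055) or knockdown replicate 2 (0.057). RRM1 made up 34.8 ± 1.14% of the pair per kb in knockdown and 32.6 ± 0.455% in control libraries (SD, n = 3 each). RRM2B, a further subunit gene outside the list, also rose (log2 fold change 0.27, SE 0.09, adjusted p = 0.037, edgeR). It was at 0.12 after the GC and length correction.

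SAMHD1 (chr20:36889773-36951708) encodes a hydrolase that breaks deoxynucleoside triphosphates down, the opposite direction to the reductase. It had 54.9, 64.0 and 63.6 CPM in knockdown and 38.5, 47.5 and 42.6 CPM in control libraries. The groups were apart, and the log2 fold change of 0.51 was the highest of the 36 genes (SE 0.10, adjusted p = 0.0035, edgeR). Its exons share 1159 bases with TLDC2 on the other strand, and the sources used here do not give the strand setting of the counts. Genes for making and for degrading deoxynucleotides thus rose side by side.

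The other 4 genes, of thymidylate synthesis and nucleotide clean-up, did not pass. TYMS, the thymidylate synthase gene, had 226, 205 and 205 CPM in knockdown and 226, 204 and 218 CPM in control libraries, with overlap (95% interval -0.19 to 0.13). It shares 967 exonic bases with ENOSF1 on the opposite strand. DUT, which removes dUTP, had 142, 143 and 148 CPM in knockdown and 158, 155 and 153 CPM in control libraries. Its groups were apart by a narrow margin, with a log2 fold change of -0.11 and an adjusted p of 0.24 (edgeR). DTYMK, the thymidylate kinase gene, had 110.0, 89.5 and 76.9 CPM in knockdown and 101, 84.9 and 93.5 CPM in control libraries, where knockdown replicate 1 was the highest and replicate 3 the lowest of all 6 libraries. DCTPP1, which hydrolyses dCTP and related triphosphates, was at -0.07 (95% interval -0.29 to 0.15).

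Salvage went both ways. Of 8 genes, 1 rose (HPRT1), 3 fell (UCK2, TK2 and APRT) and 4 did not pass, with a median log2 fold change of -0.25. Over all tested genes 13% rose and 13.1% fell. The purine salvage enzymes HPRT1 and APRT, which join hypoxanthine or guanine, and adenine, to PRPP, moved in opposite directions. HPRT1 (chrX:134460165-134500668) had 57.7, 57.0 and 66.7 CPM in knockdown and 43.3, 44.0 and 42.8 CPM in control libraries. The controls were tight and all knockdown libraries were higher (log2 fold change 0.48, SE 0.09, adjusted p = 0.0020, edgeR). APRT (chr16:88809339-88811928) had 65.3, 47.6 and 41.6 CPM in knockdown and 75.1, 63.4 and 76.2 CPM in control libraries. It was the 1 called gene whose groups overlapped: knockdown replicate 1 was above control replicate 2 (log2 fold change -0.47, SE 0.15, adjusted p = 0.038, edgeR). Leaving out either of control replicates 1 and 3, or of knockdown replicates 2 and 3, ended its call (adjusted p 0.079 to 0.12), as did a fit with no filter on low counts (0.064) and removal of the GC and length trend (0.066).

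The uridine-cytidine kinases recover pyrimidine nucleosides. UCK2 (chr1:165827614-165911618), the isoenzyme often high in tumours, had 55.6, 57.3 and 50.1 CPM in knockdown and 65.7, 67.0 and 70.6 CPM in control libraries and fell without overlap (log2 fold change -0.32, SE 0.08, adjusted p = 0.014, edgeR). Without control replicate 3 the adjusted p was 0.084. UCK1 had 47.5, 45.2 and 41.6 CPM in knockdown and 55.9, 50.6 and 50.2 CPM in control libraries, also without overlap. Its log2 fold change of -0.22 did not pass (adjusted p = 0.079, edgeR). The adjusted p was 0.018 without knockdown replicate 1, but 0.52 at a log2 fold change of -0.05 after the GC and length correction (edgeR). UCK1 was 64.1 ± 0.918% of the pair per kb in knockdown and 62.5 ± 2.12% in control libraries (SD, n = 3 each). UPP1, the uridine phosphorylase gene, had 261, 204 and 188 CPM in knockdown and 211, 192 and 196 CPM in control libraries. Knockdown replicate 1 was far above the rest and knockdown replicate 3 below all controls (95% interval -0.11 to 0.36).

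Of the deoxynucleoside kinases, TK2 fell and TK1 and DCK did not pass. TK2 (chr16:66508003-66550291), the mitochondrial thymidine kinase gene, had 31.3, 28.7 and 30.1 CPM in knockdown and 39.8, 38.4 and 34.4 CPM in control libraries and fell without overlap (log2 fold change -0.32, SE 0.09, adjusted p = 0.023, edgeR). Its call did not survive without control replicate 1 (adjusted p = 0.12), control replicate 2 (0.081) or knockdown replicate 2 (0.10). TK1, the cytosolic kinase of S phase, had 234, 185 and 163 CPM in knockdown and 251, 215 and 237 CPM in control libraries. Knockdown replicates 2 and 3 were below every control and knockdown replicate 1 among them (log2 fold change -0.27, adjusted p = 0.11, edgeR; 2.62e-04 without knockdown replicate 1). DCK, which phosphorylates deoxycytidine, had 69.2, 71.6 and 79.0 CPM in knockdown and 58.6, 65.7 and 66.6 CPM in control libraries. Its groups were apart, with a log2 fold change of 0.20 and an adjusted p of 0.096 (edgeR). The adjusted p was 0.020 without knockdown replicate 1, but 0.24 at a log2 fold change of 0.08 after the GC and length correction (edgeR).

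The 3 kinases that raise monophosphates and diphosphates did not pass, with 0 of 3 at an unadjusted p under 0.05 and 0 called by DESeq2 or limma-voom. Over all tested genes edgeR called 26.1%. CMPK1, the kinase of UMP and CMP, had 149, 173 and 185 CPM in knockdown and 143, 154 and 153 CPM in control libraries (log2 fold change 0.17, adjusted p = 0.17, edgeR). Its adjusted p was 0.0043 without knockdown replicate 1, but 0.51 at a log2 fold change of 0.04 after the GC and length correction (edgeR). GUK1, the guanylate kinase gene, had 146, 124 and 100.3 CPM in knockdown and 129.7, 113 and 131 CPM in control libraries, and its knockdown libraries spanned the controls on both sides. Its log2 fold change was -0.01, but 0.23 and called higher after the GC and length correction (adjusted p = 2.16e-04, edgeR). NME1, a nucleoside diphosphate kinase gene, was at 0.02 (95% interval -0.14 to 0.17). Its exons share 638 bases with the readthrough gene NME1-NME2. On the same strand RRM2 shares 1077 exonic bases with AC007240.1, ADSL 1344 with another protein-coding entry, TK2 226 with another and DCK 199 with MOB1B. There ADSS2 shares 157 with a further entry and UCK2 56 with MIR3658, so the values of all these genes are uncertain to that extent. On the opposite strand TK2 shares 1056 bases with 1 entry, DCTPP1 666 with ZNF771, DUT 533 with DUT-AS1 and GLUD1 464 with SHLD2, among others. With the strand setting unknown, the same limit holds for them. Pseudogenes carry the names of IMPDH1 (10 of them), DUT (8), PAICS (7), RRM2 (3), HPRT1 (3) and PRPS1 (2), and how reads shared with such copies were counted is likewise unknown here.

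Across the list, the groups did not overlap for 18 of 36 genes (50%), where 42% of all tested genes did not overlap. Of the 18, 11 lay higher and 7 lower in the knockdown, where 21.6% and 20.5% of all tested genes did so. Counted together the 36 genes took 0.436, 0.422 and 0.426% of all counts in knockdown replicates 1 to 3, against 0.402, 0.397 and 0.406% in control replicates 1 to 3. The knockdown share was thus above the control share in every library, in a sum to which RRM2 gave the most counts.

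**Figure D3:**
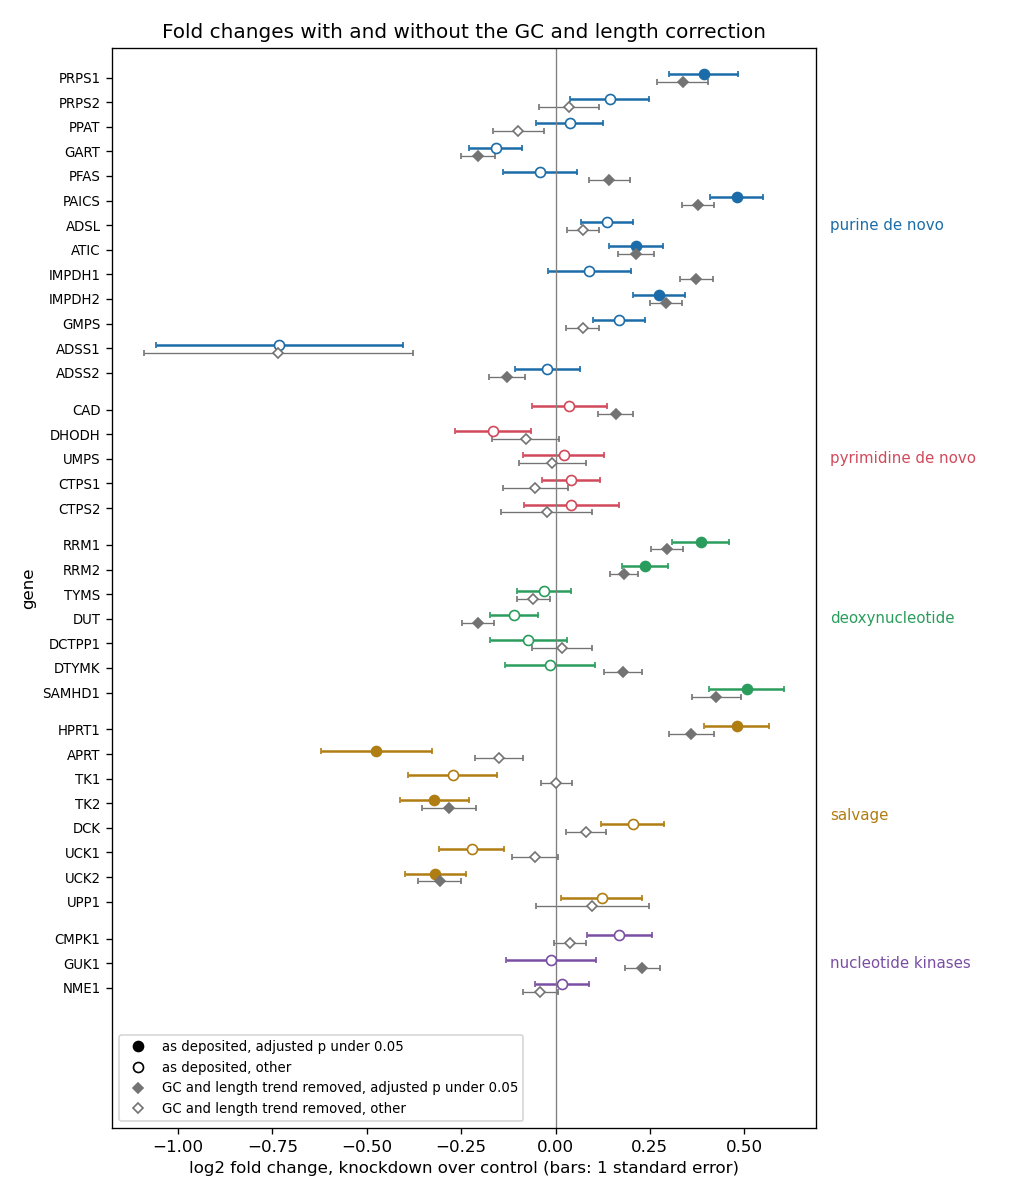
Log2 fold change of each gene, knockdown over control, with bars of 1 SE (circles: counts as deposited; grey diamonds: after removal of the trend of each library over transcript GC and length; filled symbols: adjusted p under 0.05 in edgeR). PAICS, RRM1, SAMHD1 and HPRT1 stay right of 0 in both, IMPDH1 is at 0.37 after the removal and 0.09 before it, and APRT at -0.15 after it and -0.47 before it.

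GC content moved with several of these values. Well-expressed genes (average log2 CPM of 3 or more) were split into 5 bins by transcript GC content. The median of the lowest bin minus that of the highest, relative to the control mean on the log2 scale, was 0.05, 0.46 and 0.74 in knockdown replicates 1 to 3, against -0.12, 0.14 and -0.03 in control replicates 1 to 3. The gap was thus wide in knockdown replicates 2 and 3 and not in knockdown replicate 1. In the highest bin lie 8 listed genes (GC content above 57.5%): PFAS, IMPDH1, CAD, DTYMK, APRT, TK1, UCK1 and GUK1. In all 8 of them knockdown replicate 1 was the highest of the knockdown libraries. In the lowest bin lie PPAT, DCK and CMPK1, and there knockdown replicate 3 was the highest in 3 of 3. Across the 36 genes the Spearman correlation of fold change with GC content was -0.55, and across 13200 tested genes it was -0.44. Both are descriptions, since all genes share the same libraries.

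**Figure D4:**
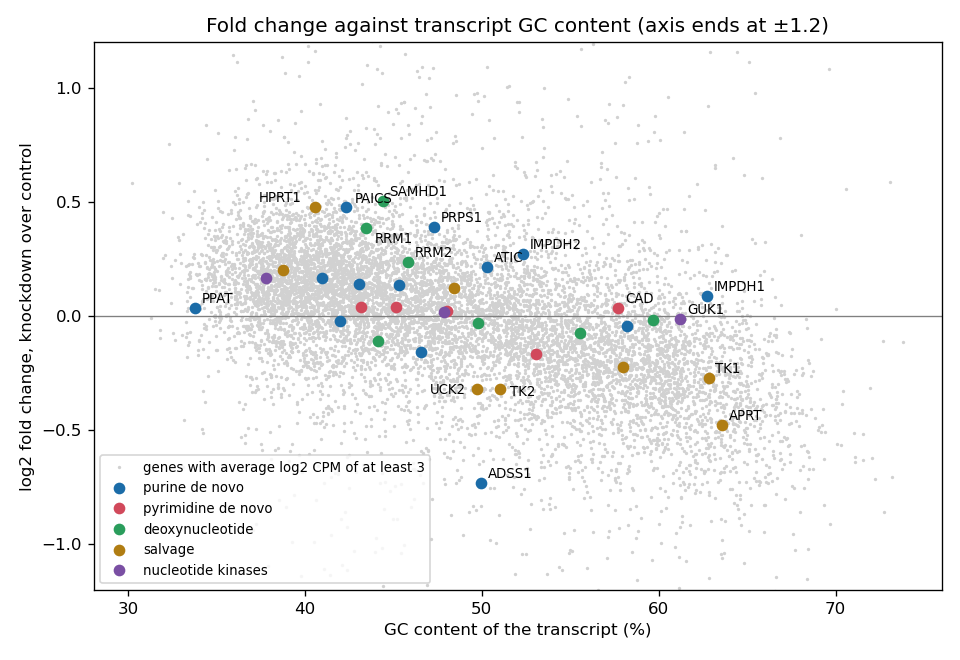
Log2 fold change, knockdown over control (y axis, ending at ±1.2), against GC content of the representative transcript in percent (x axis), for genes whose average log2 CPM is 3 or more (grey) and for the 36 listed genes (coloured by step, some labelled). HPRT1 (40.6% GC) and PAICS (42.3%) lie high and APRT (63.6%) and TK1 (62.8%) low, along the slope of the grey cloud, while IMPDH1, at 62.8% GC, lies above it.

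When the trend of each library over transcript GC and length was removed within the edgeR fit, an alternative added after the data were seen, 13 listed genes rose and 5 fell, where 20.2% of 13200 genes were higher and 18.3% lower. Of the 11 genes called before, 10 were called again and 8 others were added. PAICS was then at 0.38, SAMHD1 at 0.43, HPRT1 at 0.36 and PRPS1 at 0.34. RRM1 was at 0.30, IMPDH2 at 0.29, ATIC at 0.21 and RRM2 at 0.18. UCK2 (-0.31) and TK2 (-0.28) were lower as before. APRT lost its call at -0.15.

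The 8 genes added by the correction were mostly GC-rich ones that rose: IMPDH1 (0.37), GUK1 (0.23), DTYMK (0.18), CAD (0.16) and PFAS (0.14). GART (-0.20), DUT (-0.21) and ADSS2 (-0.13) fell with it. TK1 was at 0.00, with an adjusted p of 0.97 (edgeR). PPAT was at -0.10 and was not called, so that PPAT and PAICS had opposite signs. The median of the purine genes was 0.07, of the deoxynucleotide genes 0.18 and of the salvage genes -0.03. UCK2 and TK2 thus fell with and without the correction, and APRT fell without it.

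Other genes of nucleotide metabolism and its supply were read from the same fit. Of 22 tested genes of nucleotide interconversion outside the list, 5 rose and 2 fell, where 13% of all tested genes rose and 13.1% fell. AK4, a mitochondrial adenylate kinase gene, averaged 99.9 ± 11.3 CPM in knockdown and 57.0 ± 4.88 CPM in control libraries (SD, n = 3 each), a log2 fold change of 0.81. The adenosine kinase gene ADK rose by 0.38 on the log2 scale, and NME3 fell by 0.65 (-0.25 after the GC and length correction).

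Of 22 tested genes of nucleotide breakdown, 3 rose and 2 fell, where 13% of all tested genes rose and 13.1% fell. NT5E, the cell surface nucleotidase that makes adenosine from AMP, had 518, 555 and 579 CPM in knockdown and 281, 296 and 303 CPM in control libraries. It was higher in every knockdown library, with an adjusted p of 3.50e-06 in edgeR and a log2 fold change of 0.91 (SE 0.07), a larger estimate than that of any of the 36 synthesis genes. NT5C3A, a pyrimidine nucleotidase gene, rose by 0.79 and GMPR, whose enzyme turns GMP back into IMP, by 0.92 on the log2 scale. GMPR was low, at 4.04 ± 0.586 CPM in knockdown and 2.13 ± 0.814 CPM in control libraries (SD, n = 3 each), and the SE of its fold change was 0.27. ADA, the adenosine deaminase gene, fell by 0.80. Of 7 tested nucleoside and nucleotide carriers, SLC25A36, a mitochondrial pyrimidine nucleotide carrier gene, rose by 0.35 (0.21 after the GC and length correction) and SLC29A2, an equilibrative nucleoside transporter gene, fell by 1.16, at 1.80 ± 0.372 CPM in knockdown and 4.04 ± 0.756 CPM in control libraries (SD, n = 3 each).

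Folate enzymes hand purine and thymidylate synthesis their single carbons. Of 13 tested genes, 2 rose and 5 fell, where 13% of all tested genes rose and 13.1% fell. MTHFD2 and ALDH1L2, of the mitochondrial folate pathway, fell by 1.13 and 1.09 on the log2 scale, SHMT2, the mitochondrial serine hydroxymethyltransferase gene, by 0.58 and FPGS, which retains folates in the cell, by 0.50 (-0.20 after the GC and length correction). MTHFD1L, also of the mitochondrial pathway, rose by 0.26. The fall of MTHFD2 was larger than any change among the called synthesis genes.

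Because RRM2, TYMS and TK1 are made mainly in cells that replicate DNA, lists of cell division genes were counted beside them. Over all tested genes 13% rose and 13.1% fell. Of 28 DNA replication genes 1 rose (PRIM1, by 0.49), 1 fell (E2F1, by 0.33, but -0.05 after the GC and length correction) and 26 did not pass, with a median log2 fold change of -0.05. Of 18 mitosis genes 14 rose, 0 fell and 4 did not pass, with a median of 0.31. BUB1B rose by 0.52, CCNB1 by 0.39, TPX2 by 0.35 and KIF20A by 0.34 on the log2 scale. The rises of RRM1 and RRM2 thus went with higher mitosis genes and with replication genes near 0, and the part of the cell cycle in them was not tested. The count of higher mitosis genes was 6 without control replicate 3 and 8 without knockdown replicate 2, and with the GC and length correction it was 17.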

How the data were processed

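The authors deposited 1 table of whole-number counts per gene row, and its values are raw. The submitters' processing notes name the build GRCh38.p14. The aligner, counter and strand setting were not given in the sources used. Groups came from the genotype labels and replicate numbers from the titles.

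Rows of the same symbol were summed (1634 symbols had several), giving 24976 symbols, including 4956 unnamed newly assembled loci that stayed in totals and tests. After filterByExpr, 15638 genes were scaled by TMM and tested with edgeR 4.0.16 in R 4.3.3 (robust quasi-likelihood F-test, two-sided, Benjamini-Hochberg over all tested genes, threshold 0.05). SE is the log2 fold change over the square root of F, and 95% intervals use the moderated degrees of freedom. Precision rests on 3 cultures a group and 31201100 to 35619614 counts, with a biological coefficient of variation of 0.111. In counts simulated from this comparison (15406 genes), 12% of genes with a true log2 change of 0.3 were called, 64% of those at 0.5, 98% at 1 and 100% at 2, with 15 false calls. Only 50 genes were changed at each size, while 4085 genes were called in the data. With fewer true changes the Benjamini-Hochberg cutoff is stricter, so these shares can understate recovery in the data.

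Alternatives were relative log expression or upper quartile scaling, no filter, a filter of 1 CPM in 3 libraries, DESeq2 1.42.0, limma-voom (limma 3.58.1), the replicate block, only the highest row of each symbol, a threshold of 0.01, each library left out, and removal of a loess surface (span 0.5) over GC content and log length of GENCODE 29 transcripts, which covered 84.4% of tested genes and all 36 members. Added after seeing the data were this correction as edgeR offsets and limma-trend without it. Log2 CPM used a prior count of 2. CPM per kb divides by the transcript with the longest coding sequence. The 36 genes and the other lists were chosen with earlier results of these data known. All 36 were named by rule, with up to 4 called genes of the smallest p from each other list; the marker genes and MTHFD1L were named after their values were seen, and some genes of these lists are not reported here. Promoter windows are RefSeq's for GRCh38.p14.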

Additional observations from a re-analysis of the deposited data

How the results depend on the processing

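The fall of GLUD1 kept its direction and call under every setting (-1.88 to -1.71 with 1 library left out). Of 36 synthesis genes, the direction turned, with a call, in 3, all with a GC and length correction: PFAS (0.14 in limma-trend with or without the replicate block and 0.14 in edgeR), DTYMK (0.17, 0.17 and 0.18) and GUK1 (0.22, 0.22 and 0.23). The 8 higher and 3 lower synthesis genes were 13 and 5 with the correction in limma-trend or edgeR, 13 and 6 with the correction and the replicate block together, and 5 and 0 at an adjusted p under 0.01, where the transcriptome had 1013 higher and 977 lower, purine synthesis 2 higher and salvage 0 lower. With the correction in any form (limma-trend, limma-trend with the replicate block, edgeR offsets) purine synthesis had 2 lower, pyrimidine synthesis 1 higher, deoxynucleotide supply 1 lower and the nucleotide kinases 1 higher. The medians of log2 fold change were then 0.069 in limma-trend and 0.073 in edgeR for purine synthesis, -0.024 and -0.023 for pyrimidine synthesis, 0.17 and 0.18 for deoxynucleotide supply and -0.030 and -0.026 for salvage, and the block did not change them.

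Outside the list, interconversion genes were 1 lower with upper quartile scaling, no filter or only the highest entry of each symbol, 4 lower with the correction, 5 with the correction and block, and 2 higher and 0 lower at 0.01. Breakdown genes were 5 higher with each form of the correction and 1 lower at 0.01. Carriers were 2 higher with the block, 4 higher and 2 lower with each form of the correction and 0 higher at 0.01. Folate genes were 0 higher and 3 lower at 0.01. Replication genes were 4 lower with the block, 4 higher with each form of the correction, 3 lower with it in limma-trend, 4 with the block added and 2 in edgeR, and 0 lower at 0.01. Mitosis genes were 7 higher at 0.01. The replicate numbers did not pair the libraries: same-numbered deviations correlated at 0.37, 0.10 and -0.11. The replicate block alone left 8 synthesis genes higher and called 4 lower, TK1 (adjusted p = 0.013) among them.

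With 1 library left out the transcriptome had 1161 to 2978 genes higher and 1053 to 3258 lower, and the list 5 to 11 higher and 1 to 5 lower (5 higher without control replicate 1 or 2, 1 lower without control replicate 1 or 3 or knockdown replicate 2, and 5 lower without knockdown replicate 1). Higher genes numbered 2 to 5 for purine synthesis, 2 to 3 for deoxynucleotide supply, 1 to 2 for salvage (1 to 5 lower) and 0 to 1 for the nucleotide kinases, and pyrimidine synthesis had 0 of either. For the other lists these were 2 to 5 higher and 0 to 7 lower for interconversion, 2 to 4 and 1 to 4 for breakdown, 0 to 3 and 1 for carriers, 0 to 2 and 3 to 6 for folate, 1 to 2 and 0 to 7 for replication and 6 to 15 higher for mitosis. Medians of log2 fold change ranged from -0.018 to 0.074 for the list, 0.10 to 0.16 for purine synthesis, -0.012 to 0.060 for pyrimidine synthesis, -0.074 to 0.10 for deoxynucleotide supply, -0.30 to -0.16 for salvage and -0.033 to 0.10 for the kinases. The highest counts for the transcriptome and the list came without knockdown replicate 1, whose GC trend differs from the other knockdown libraries, and the cause was not tested. Of simulated log2 changes of 0.3, 12% were called, in counts where far fewer genes changed than were called here. In the data the changes of ATIC (0.21) and RRM2 (0.24) were called, and both calls were lost without some single libraries. Changes of this size remain uncertain with 3 cultures a group.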
